A study of Mus musculus with 2 samples.

Results

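The Schlafen genes of the mouse form a family of 7 genes here, Slfn1, Slfn2, Slfn3, Slfn4, Slfn5, Slfn8 and Slfn9, out of 18193 genes with a named probe set. They were taken by name: a probe set was included if its annotated symbol was exactly that of a family member, which gave 11 probe sets. The samples were DN3 thymocytes, immature T cell precursors sorted as CD25-positive cells that lack CD44 and lineage markers, from Miz-1 knockout mice, described in the series as Miz1-delta-POZ, and from wild-type mice. Both had the C57BL/6 background. Zbtb17 encodes Miz-1, a DNA-binding zinc finger protein whose POZ domain, used to bind partner proteins, is missing in the mutant. The labels state neither the age and number of the animals nor what drove the deletion. Each genotype had 1 array and no replicate, so no difference has an error between animals and none was tested; differences are described by size.

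Schlafen proteins are known as regulators of growth and quiescence in lymphocytes, and the family was named after the growth arrest that its founding members cause. The family has 3 classes: short proteins (Slfn1 and Slfn2), intermediate ones (Slfn3 and Slfn4), and long ones that carry a helicase-like domain (Slfn5, Slfn8 and Slfn9). Several members are induced by type I interferon, and several family proteins bind or cleave transfer RNA.

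Slfn8 and Slfn2 were the members that passed the 2-fold limit, and both were higher in the knockout. Slfn5 was also higher in the knockout, with a wild-type signal too dim for its full size to be read. Slfn9 read slightly lower in the knockout by both of its probe sets. Slfn1, Slfn3 and Slfn4 were dim on both arrays. A signal was treated as dim below a floor of 394, the median of all values on both arrays. Lower values were raised to the floor before a log2 ratio of knockout over wild type was taken, so a fold against a dim array is a lower bound.

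The sequences around the start sites of the 4 brightest members are shown because these genes lie in a single cluster on chromosome 11 and yet differ in how their knockout and wild-type signals compare. Each runs 5′ to 3′ on the gene's own strand from 250 bases before to 50 after the start site (RefSeq, GRCm38.p6). Capitals mark GAAANNGAA or its reverse complement TTCNNTTTC, the core of the interferon-stimulated response element. The Slfn2 window is chr11:83064862-83065161 on the plus strand, Slfn5 is chr11:82951852-82952151 on the plus strand, Slfn8 is chr11:83020761-83021060 on the minus strand and Slfn9 is chr11:82991781-82992080 on the minus strand.
Slfn2: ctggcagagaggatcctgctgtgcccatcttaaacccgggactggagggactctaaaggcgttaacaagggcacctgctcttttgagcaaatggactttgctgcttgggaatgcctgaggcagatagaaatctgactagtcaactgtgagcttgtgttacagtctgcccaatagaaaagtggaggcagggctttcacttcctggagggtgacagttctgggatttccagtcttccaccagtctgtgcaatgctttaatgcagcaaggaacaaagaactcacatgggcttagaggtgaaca
Slfn5: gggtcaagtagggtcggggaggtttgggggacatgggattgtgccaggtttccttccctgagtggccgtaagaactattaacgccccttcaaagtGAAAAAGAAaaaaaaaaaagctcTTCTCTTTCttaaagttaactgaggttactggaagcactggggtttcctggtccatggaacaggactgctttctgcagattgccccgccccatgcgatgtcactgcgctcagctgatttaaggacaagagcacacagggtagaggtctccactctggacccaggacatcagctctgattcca
Slfn8: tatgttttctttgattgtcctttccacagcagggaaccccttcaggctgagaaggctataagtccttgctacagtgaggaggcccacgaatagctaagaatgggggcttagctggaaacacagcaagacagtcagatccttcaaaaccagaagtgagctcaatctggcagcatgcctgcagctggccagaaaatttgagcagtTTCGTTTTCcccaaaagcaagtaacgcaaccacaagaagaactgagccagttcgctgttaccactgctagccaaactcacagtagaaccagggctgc
Slfn9: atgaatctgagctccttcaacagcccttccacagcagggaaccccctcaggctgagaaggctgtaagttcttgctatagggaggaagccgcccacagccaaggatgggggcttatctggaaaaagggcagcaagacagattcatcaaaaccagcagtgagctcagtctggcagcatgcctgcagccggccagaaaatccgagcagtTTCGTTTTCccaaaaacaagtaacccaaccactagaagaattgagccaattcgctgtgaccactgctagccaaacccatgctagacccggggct

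The interferon element core was found in the windows of 3 of the 7 members, Slfn5, Slfn8 and Slfn9, and in 8.56% of 32851 mouse windows of the same length, both strands being searched. Slfn5 held 2 matches, beginning 155 and 132 bases before the start site. Slfn8 and Slfn9 each held the match TTCGTTTTC, beginning 47 and 44 bases before the start site. A second Slfn8 start site lies close by and its window, which overlaps the one shown, holds the same match. The Slfn8 and Slfn9 windows were the most alike of the 21 pairs, with 80.8% identical positions after global alignment, against 46.5% to 53.0% in the other 20 pairs. The same letters near the start site stood beside a 3.96-fold higher signal for Slfn8 and a slightly lower one for Slfn9 in the knockout. The windows of Slfn2, Slfn1, Slfn3 and Slfn4 held no match. No member's window held the STAT site TTCNNNGAA (8.30% of all windows), the E box CACGTG (7.15%) or ATCGGTAAT, the first letters of a reported Miz-1 motif (0.0213%). A match describes letters only, and its absence says nothing of whether a factor acts on the gene.

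Among the short members, Slfn2 is needed for T cells and monocytes to stay quiescent, as mice with a loss-of-function mutation show. Its only probe set read 3101 in knockout cells, against 1029 in wild-type cells, a 3.01-fold higher signal with a log2 ratio of 1.59. Both arrays were well above the floor. Of 10770 genes whose mean signal exceeded the floor, called measured below, 154 (1.43%) had a log2 ratio at least as high. Slfn1, the member whose expression slows the growth of thymocytes in transgenic mice, was dim. Its brighter probe set read 33.5 in knockout cells, against 71.2 in wild-type cells, and the other read 34.3 in knockout cells, against 46.9 in wild-type cells. All of these signals lay far below the floor, so no fold is given and no order between the genotypes can be read.

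**Figure D1:**
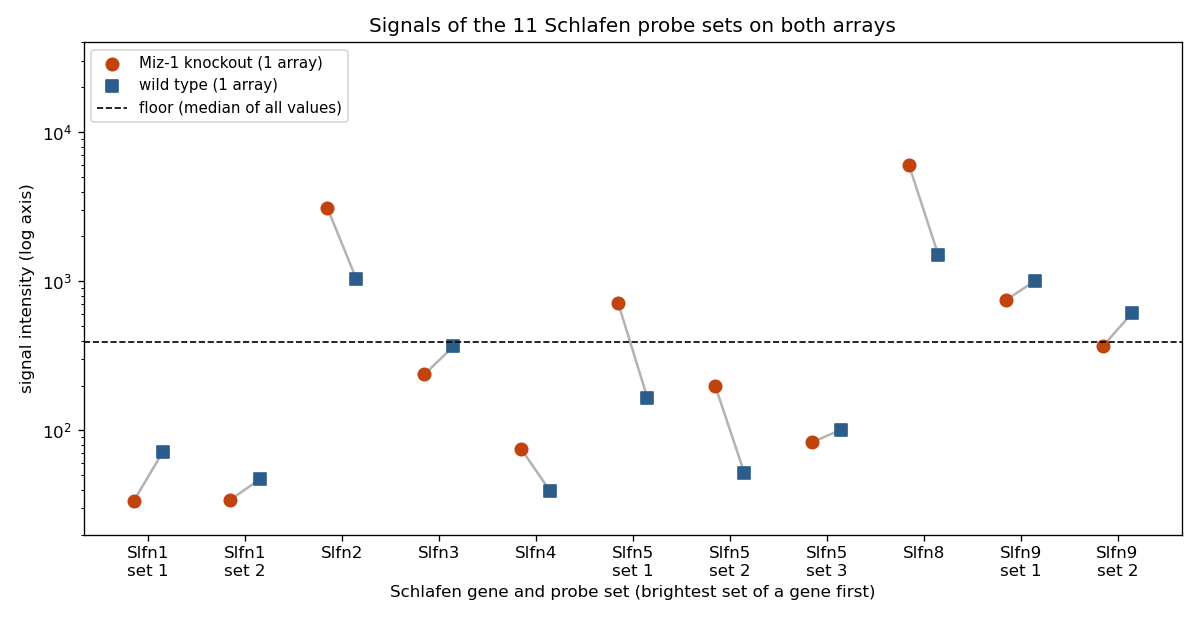
Signal intensity on a log axis for the 11 Schlafen probe sets, with the knockout array as circles left of the wild-type array as squares and the floor of 394 dashed. Slfn8 and Slfn2 lie above the floor on both arrays with the knockout higher, Slfn5 crosses the floor in its brightest set, Slfn9 leans the other way, and 6 probe sets lie below the floor on both arrays.

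The intermediate members were not measurable. Slfn4, a gene of the myeloid lineage, read 74.8 in knockout cells, against 38.9 in wild-type cells. Slfn3, linked in the rat to differentiation of the intestinal epithelium, read 237 in knockout cells, against 366 in wild-type cells. Neither reached the floor on either array. A further probe set is annotated to both Slfn4 and Slfn3 and therefore belongs to no single member. It read 77.4 in knockout cells, against 426 in wild-type cells, at least 1.08-fold lower, with the wild type alone above the floor.

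Among the long members, Slfn8 had the largest ratio of the family with the floor at the median. With the floor at the lower quartile, Slfn5 stood above it, with a log2 ratio of 2.10 for Slfn5 and 1.99 for Slfn8. Slfn8 reduces thymocyte numbers when expressed from a transgene in mice. Its only probe set read 5989 in knockout cells, against 1512 in wild-type cells, 3.96-fold higher, with a log2 ratio of 1.99. It was also the brightest Schlafen probe set on each array. Of the 10770 measured genes, 60 (0.557%) had a log2 ratio at least as high.

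Slfn5, whose human counterpart is induced by type I interferon, has 3 probe sets. The brightest read 711 in knockout cells, against 166 in wild-type cells, so the signal was at least 1.80-fold higher against the floor and 4.29-fold by the signals as deposited. The gene counted as measured only through its knockout signal. The next probe set lay below the floor on both arrays, at 199 in knockout cells, against 52.1 in wild-type cells. The dimmest read 83.3 in knockout cells, against 101 in wild-type cells. The log2 ratio of at least 0.85 for Slfn5 thus rests on its brightest probe set alone, the only one above the floor on either array.

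Slfn9, the closest neighbour of Slfn8 in the alignment of start-site windows, did not share its higher signal. Its brighter probe set read 748 in knockout cells, against 1009 in wild-type cells, a log2 ratio of -0.43. The other read 368 in knockout cells, against 612 in wild-type cells, a log2 ratio of at most -0.64. Both probe sets leaned to lower signal in the knockout, by less than 2-fold. Slfn8, Slfn9 and their neighbour Slfn10-ps are closely related genes, and whether their probes share signal was not tested. None of the 11 probe sets carries the array's mark for sequence shared between genes.

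Of all 7 members, 2 passed 2-fold upward in the knockout and 0 downward. Over all genes with a probe set, 4.28% did so upward and 3.34% downward. Among measured genes alone these shares were 7.23% and 5.65%. With 7 members, of which 4 were measured, these counts set nothing apart about the family. The log2 ratios of measured probe sets of the same gene spread with an SD of 0.57 over 4514 genes, equal to 1.49-fold. The log2 ratio of Slfn8 was 3.45 times this SD and that of Slfn2 was 2.77 times, while that of Slfn9 was -0.75 times. The SD describes probe sets within these arrays and not animals, and Slfn8 and Slfn2 have no second probe set of their own to compare. The plot of processing settings gives the members under 8 alternatives. For Slfn2 and Slfn8, each with a single bright probe set, 5 of the 8 leave the ratio as it is by construction. Only the 3 normalizations could move them, and there Slfn2 was 2.89-fold to 2.93-fold and Slfn8 3.86-fold to 3.99-fold higher. Slfn9 was moved by 4 of the 8 and lay between -0.56 and -0.47 in these.

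**Figure D2:**
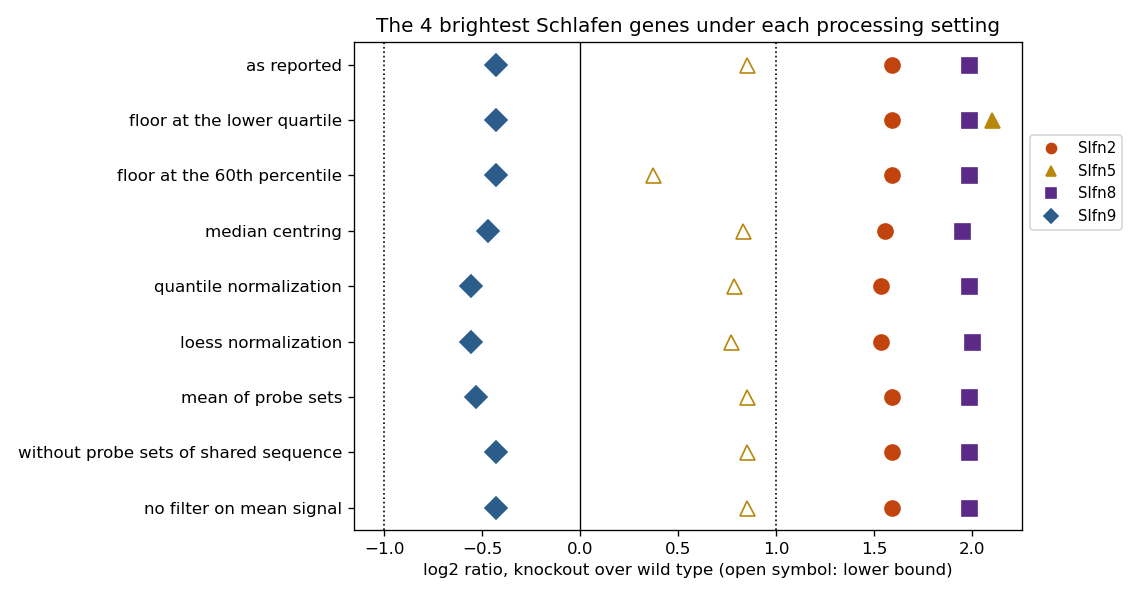
Log2 ratio of knockout over wild type for Slfn2, Slfn5, Slfn8 and Slfn9 under the reported processing and 8 alternatives, with dotted lines at 2-fold and open symbols for lower bounds. Slfn2 and Slfn8 could move only under the 3 normalizations, and Slfn5 lies between 0.37 and 2.10 depending on where the floor is set.

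The Schlafen genes lie side by side on chromosome 11, in the RefSeq order Slfn5, Slfn9, Slfn8, Slfn10-ps, Slfn2, Slfn1, Slfn4, Slfn3 and Slfn14. Slfn9, which stayed within 2-fold, lies between Slfn5 and Slfn8. Slfn14 had no named probe set. Slfn10-ps, which lies between Slfn8 and Slfn2, read 416 in knockout cells, against 305 in wild-type cells, at least 1.06-fold higher. It stayed close to the floor, while the members on both of its sides were at least 3.01-fold higher.

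Of the 10 protein-coding genes on each side of the cluster, 17 had a probe set and 8 were measured. Of the 8, 0 passed 2-fold upward and 1 downward. Among all measured genes, 7.23% passed upward and 5.65% downward, so these counts set nothing apart about the neighbours. The gene that passed downward, 1700020L24Rik, read 403 in knockout cells, against 883 in wild-type cells, 2.19-fold lower. The 8 measured neighbours had log2 ratios from -1.13 to 0.05 with a median of -0.39, against a median of 0.00 over all measured genes. Of these 8, 7 had a negative ratio. Unc45b, which encodes a myosin chaperone and is the nearest neighbour before the cluster, is named after its values were seen. Its mean signal of 226 lay well below the floor, so it was not measured. It read 391 in knockout cells, just under the floor, against 60.8 in wild-type cells, 6.44-fold higher by the signals as deposited. With the floor at the lower quartile of the signals, 1 neighbour passed 2-fold upward and 4 downward. The upward one was Unc45b, at least 3.30-fold higher with a log2 ratio of at least 1.72, above the 1.59 of Slfn2. In the other 7 alternatives 0 neighbours passed upward and 0 to 1 downward. Nle1, a ribosome assembly gene before the cluster, read 862 in knockout cells, against 1570 in wild-type cells. Ap2b1, which encodes an adaptor subunit of clathrin coats and lies after the cluster, read 2567 in knockout cells, against 2481 in wild-type cells.

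**Figure D3:**
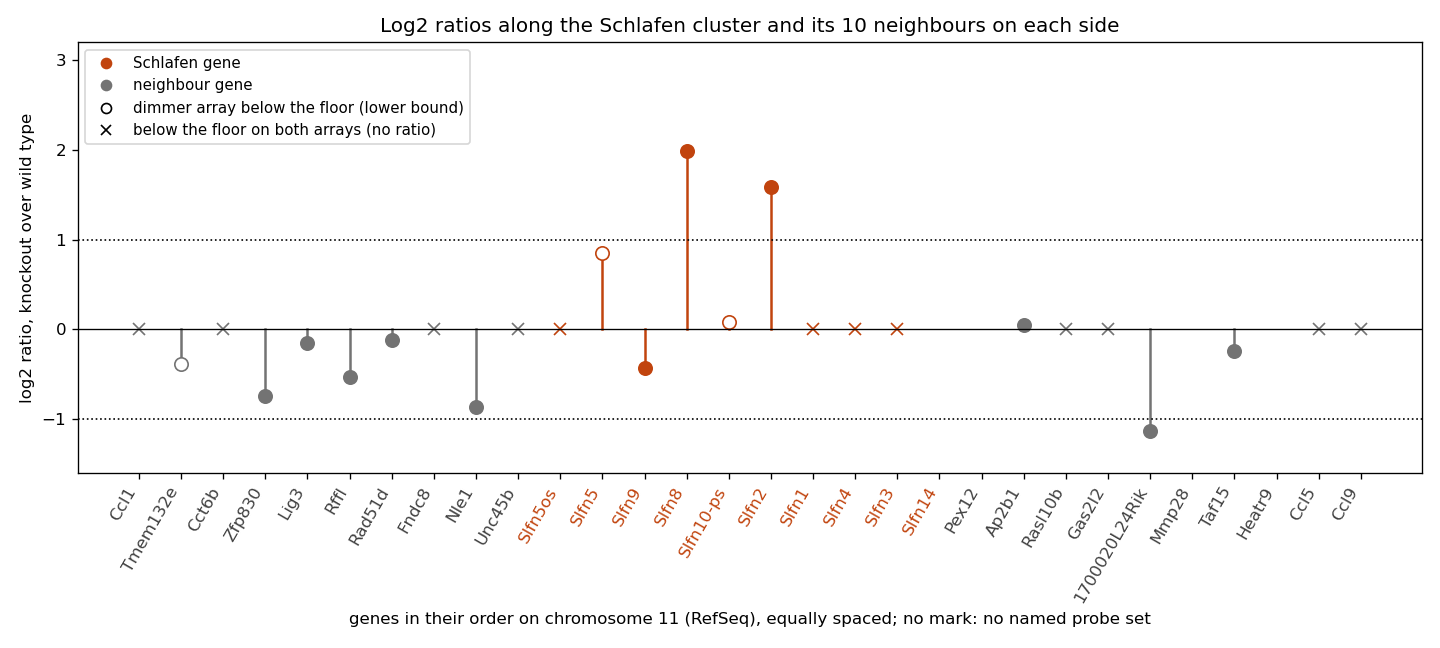
Log2 ratio of knockout over wild type for the Schlafen genes and 10 protein-coding neighbours on each side, equally spaced in chromosomal order, with dotted lines at 2-fold, open symbols for lower bounds and crosses for genes below the floor on both arrays. Slfn8 is at 1.99 and Slfn2 at 1.59, above the 8 measured neighbours, whose ratios run from -1.13 to 0.05; the remaining neighbours were not measured with this floor.

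More of the listed interferon-induced genes, a class to which several Schlafen genes belong, passed 2-fold upward than stayed within it. Of 32 interferon response genes with a probe set, 18 passed upward and 0 downward, against 4.28% and 3.34% of all genes. Of the 18, 4 did so against a wild-type signal below the floor. The 30 measured ones had a median log2 ratio of 1.36. Oas1a, an oligoadenylate synthetase, read 3880 in knockout cells, against 557 in wild-type cells, 6.96-fold higher. Usp18, which removes ISG15 from proteins, was 6.34-fold and Oasl2 4.95-fold higher. With dim signals raised to the floor, these 3 of the 30 had a log2 ratio at least as high as that of Slfn8, and 7 of the 30 one at least as high as that of Slfn2. Slfn9 lay below all 30.

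Genes of interferon ligands, receptors and signalling were less uniform. Of 22 with a probe set, 5 passed 2-fold upward and 0 downward, against 4.28% and 3.34% of all genes. The 16 measured ones had a median log2 ratio of 0.70, and the upward count ran from 3 to 9 over the alternative settings. The ligand genes gave little signal: Ifnb1 read 254 in knockout cells, against 414 in wild-type cells, Ifna4 read 267 in knockout cells, against 213 in wild-type cells, and Ifng read 27.6 in knockout cells, against 39.1 in wild-type cells. Of the type I receptor genes, Ifnar1 read 1450 in knockout cells, against 850 in wild-type cells, and Ifnar2 read 6249 in knockout cells, against 9747 in wild-type cells. The type II receptor gene Ifngr1 read 16848 in knockout cells, against 6080 in wild-type cells, 2.77-fold higher. The wild-type signals of the remaining receptor genes lay below the floor. Ifngr2 read 495 in knockout cells, against 194 in wild-type cells, and Il10rb read 675 in knockout cells, against 299 in wild-type cells. Ifnlr1 read 322 in knockout cells, against 52.5 in wild-type cells. Socs1 had a log2 ratio of -0.31. The kinase genes Jak1, Jak2 and Tyk2 had log2 ratios of 0.63, 0.32 and 0.38. The factor genes Irf9 (3.05-fold), Irf7 (2.98-fold) and Stat2 (at least 2.33-fold) were higher, and with Usp18 they stand in both interferon lists. Irf1 had a log2 ratio of 0.92, Irf2 one of 0.32, Irf3 one of 0.03 and Irf5 one of -0.17. Irf8 had a mean signal below the floor, with 612 in knockout cells, against 70.5 in wild-type cells.

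Most other genes of lymphocyte quiescence stayed within 2-fold, but as a set they leaned to higher signal in the knockout. Of 29 with a probe set, 26 were measured. Of these, 5 passed 2-fold upward, 1 passed downward and 20 stayed within it. The 26 had a median log2 ratio of 0.78, against 0.00 for all measured genes. Among all measured genes, the shares past 2-fold were 7.23% upward and 5.65% downward. Klf2 and Vsir were among the 5, and both counted as measured only through their knockout signal. Over the alternative settings 3 to 8 passed upward. Klf2, a factor that keeps T cells quiescent, read 1051 in knockout cells, against 162 in wild-type cells, at least 2.67-fold higher. Rbl2, a relative of the retinoblastoma gene, was 2.46-fold higher and Vsir, an inhibitory surface receptor gene with 133 in wild-type cells, at least 2.41-fold higher. Foxj2 (2.20-fold) and Bach2 (2.03-fold) were the other genes past the limit. The cell cycle inhibitor gene Cdkn2c went the other way, with 1815 in knockout cells, against 5066 in wild-type cells, 2.79-fold lower. Foxo1 and Foxo3, whose products hold lymphocytes in quiescence, had log2 ratios of 0.97 and 0.83, and Tob1 one of -0.93. Proliferation markers were lower, 5 of 9 by at least 2-fold and 0 higher, with a median of -1.11; Plk1 was 3.42-fold and Mki67 2.93-fold lower.

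Genes of transfer RNA cleavage and protection, a process in which several Schlafen proteins act, stayed within 2-fold. All 10 with a probe set were measured, 0 passed the limit in either direction, and their log2 ratios ran from -0.70 to 0.47 with a median of -0.16. Over all measured genes, 7.23% passed upward and 5.65% downward, so 0 of 10 sets nothing apart about this list. Nsun2, a methyltransferase that protects transfer RNA from cleavage, had a log2 ratio of -0.48. Ang, the nuclease angiogenin, had one of 0.05, and its inhibitor gene Rnh1 one of 0.47.

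**Figure D4:**
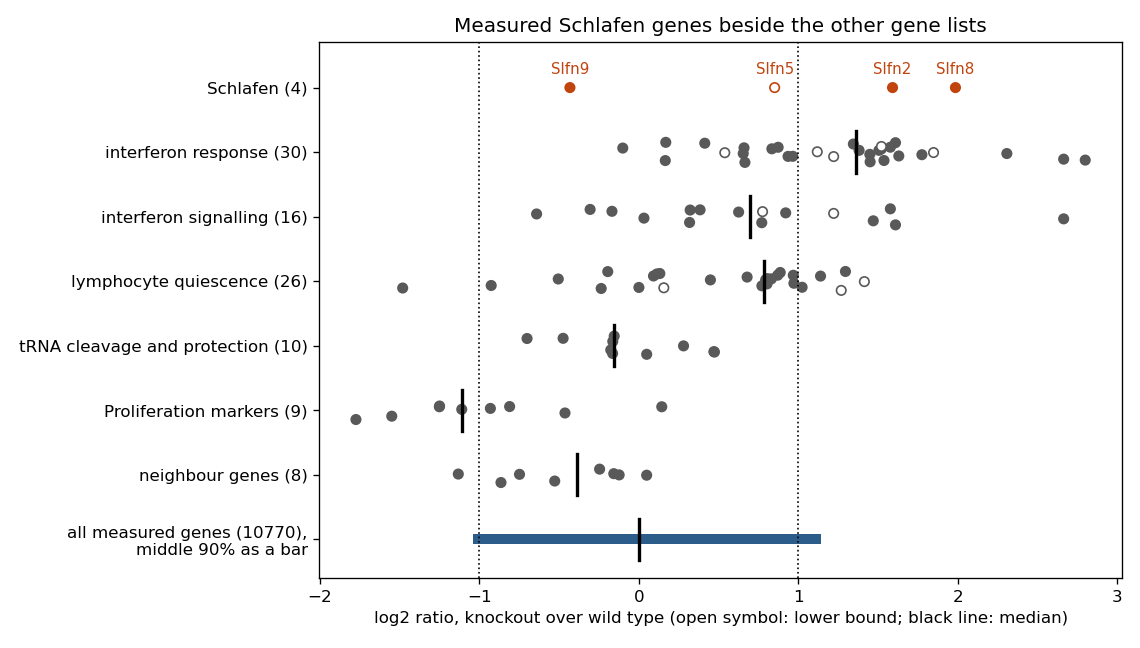
Log2 ratio of knockout over wild type for measured genes of the Schlafen family and 6 other lists, with the number of genes in brackets, open symbols for lower bounds, black lines at list medians and a bar for the middle 90% of all 10770 measured genes (-1.04 to 1.14). Slfn8 and Slfn2 lie to the right of that bar among the interferon response genes, and Slfn9 lies left of all of those.

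Some markers of other cells and of sex also differed between the arrays. Over all genes with a probe set, 4.28% passed 2-fold upward and 3.34% downward. Among measured genes alone these shares were 7.23% and 5.65%. All 14 DN3 markers with a probe set were measured, and 4 were at least 2-fold higher and 0 lower in the knockout. The 4 were Dtx1 (5.09-fold), Il2ra (4.61-fold), Cd3g (2.17-fold) and Cd3d (2.14-fold), and the other 10 stayed within 2-fold. Il2ra encodes CD25, on which the cells were sorted, and its second probe set was 3.82-fold higher. The second Dtx1 probe set was below the floor on both arrays. Half-way in rank, the 14 markers lay at a log2 ratio of 0.64, against 0.00 for all measured genes. Whether the arrays differed in DN3 stage was not tested. Of 17 myeloid markers, 9 were below the floor on both arrays, among them Itgam, Mpo and S100a8. The markers Lyz1 (8.19-fold), Lyz2 (3.59-fold) and Csf1r (2.28-fold) were higher in the knockout by their brightest probe sets. A second Lyz1 probe set was 1.83-fold higher, and of the other Csf1r probe sets one was 1.03-fold and one at least 2.58-fold higher. The third Lyz1 probe set read 42.7 in knockout cells, against 64.5 in wild-type cells, below the floor on both arrays. It alone of the Lyz1 probe sets lacks the array's mark for sequence shared between genes. Adgre1, the remaining measured myeloid marker, read 482 in knockout cells, against 498 in wild-type cells. The summed myeloid signal was 12381 in knockout cells, against 4955 in wild-type cells. Without probe sets marked for shared sequence or for several transcripts of a gene, 1 myeloid marker passed 2-fold. Of 12 mature T cell markers, 2 were at least 2-fold higher, Klf2 and Ctla4, and S1pr1 and Cd4 were below the floor on both arrays. The 7 measured ones had a median log2 ratio of -0.47, and 5 of them stayed within 2-fold. Their list had summed signals of 10885 in knockout cells, against 8961 in wild-type cells. Ctla4 alone read 5889 in knockout cells, against 2770 in wild-type cells. Past 2-fold were 2 of 8 NK cell markers and 1 of 4 erythroid markers upward, 2 of 8 B cell markers downward, and 0 of 8 dendritic cell and 0 of 9 thymic stroma markers. In lists this short, counts of 0 to 2 set nothing apart. The part of these cells in the Schlafen values was not tested. In bulk samples, more cells of a type and more RNA per cell cannot be told apart. Xist read 55300.0 in knockout cells, against 423 in wild-type cells, so the animals differed in sex, and sex and genotype cannot be told apart. The targeted gene Zbtb17 read 1361 in knockout cells, against 3042 in wild-type cells by its brighter probe set and 610 in knockout cells, against 47.6 in wild-type cells, by the other, and the labels do not say whether either lies in the deleted part.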

How the data were processed

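The authors deposited linear signal intensities per probe set. The submitters' processing notes name GCOS 1.4, with settings not given in the sources used here. Per the labels' protocols, TRIzol RNA was amplified into biotin-labelled cRNA. The 2 arrays share a mean of 1000.0 after trimming 2% at each end, so they were scaled before deposit. The table holds 45101 probe sets, of which 64 controls were left out. Symbols came from the platform annotation, updated by gene identifier from RefSeq (GRCm38.p6): 34754 of 34958 probe sets with 1 symbol matched. A gene was read by its brightest probe set and called measured if its mean signal exceeded the floor. A difference was counted at 2-fold or more with the brighter array above the floor. Above the floor were 51.6% of probe sets on the knockout array and 48.4% on the wild-type array. The number of arrays limits the precision, and no test was possible. Named were all members, signalling genes, and the 3 highest and lowest genes past 2-fold of the interferon, quiescence, neighbour and myeloid lists. In the other marker lists, genes past 2-fold were named only in part. Further examples were chosen after their values were seen. Members and lists were chosen with earlier results of these data known. Protein identity was planned and not run, since no protein table was used here. The code was tested on simulated data (Python 3.11.15, numpy 2.4.6, pandas 2.3.3, statsmodels 0.14.6).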

Additional observations from a re-analysis of the deposited data

How the results depend on the processing

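Of 136 alternative values for 17 results, 119 stayed within 1.5 times of a count or within the within-gene SD of a log2 ratio. A change of sign was looked for only in the log2 ratios of Slfn2 and Slfn8 and in the family median, and none was seen. Dropping the filter on mean signal cannot change a call, since a floored 2-fold difference already puts the mean above the floor. Part of the 119 was therefore fixed in advance. For Slfn2 and Slfn8, 5 of the 8 alternatives could not move the ratio. A floor at the lower quartile gave more calls: 9 interferon signalling and 8 quiescence genes higher, 5 neighbour genes past 2-fold (1 higher, Unc45b, and 4 lower), 7 myeloid markers higher, and 2682 genes higher and 2233 lower in all. There Slfn5 had a log2 ratio of 2.10 and passed 2-fold. A floor at the 60th percentile gave 3 quiescence genes and 1 mature T cell marker higher, 0 neighbour genes past 2-fold and 504 genes higher in all, and Slfn5 was no longer measured. Under quantile and loess normalization 2 quiescence genes were lower. With the mean of probe sets 8 quiescence genes were higher. The setting without probe sets of shared sequence also dropped those marked as reading several transcripts of 1 gene. There 3 interferon signalling genes and 1 myeloid marker were higher. Irf7 and Irf9 fell out because their only probe sets carry the mark for several transcripts. The median log2 ratio of the 4 measured Schlafen genes, 1.22, became 0 over all 7 when no filter was set, since 3 dim members then count at the floor. The cause of the other changes was not tested. Signal over background limits Slfn1, Slfn3, Slfn4 and the size of Slfn5.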

Other observations

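Further transcripts with a Schlafen name gave weak signal. Slfn5os, an antisense transcript at the Slfn5 locus, read 120 in knockout cells, against 32.1 in wild-type cells, below the floor on both arrays. Slfnl1, a Schlafen-like gene on chromosome 4, read 246 in knockout cells, against 330.0 in wild-type cells, also below the floor on both arrays.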
